A study of Homo sapiens with 4 samples.

Results

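The acyl-CoA thioesterase genes ACOT1, ACOT2, ACOT4, ACOT6, ACOT7, ACOT8, ACOT9, ACOT11 and ACOT13 were examined in T47D cells, a human luminal breast cancer line that expresses the progesterone receptor (PR), after treatment with the synthetic progestin R5020. The members were selected on their gene symbol in the RNA-seq transcript lists, which gave 9 of the 23287 gene symbols, and they were set apart as the 4 genes of a cluster on chromosome 14 (ACOT1, ACOT2, ACOT4 and ACOT6) and the 5 others. An RNA-seq library came from cells given 10 nM R5020 for 3 h, another from cells given the vehicle ethanol (EtOH) for 3 h, and a PR ChIP-seq library from cells given 10 nM R5020 for 1 h. All cells were of the same line, were grown in the same medium and were moved to charcoal-stripped serum, which is low in steroids. They were kept in it for longer before ChIP than before RNA isolation. The line is 1 established tumour line, each condition is 1 library, and every difference below is a difference between these libraries with no estimate of the spread between cultures. The genes were picked with their levels in these libraries known, so those levels are a description and carry no test.

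Acyl-CoA thioesterases cut the thioester bond of a fatty acyl-CoA and release the free fatty acid and coenzyme A, the reverse of the step catalysed by acyl-CoA synthetases. The clustered genes encode the type I enzymes, which share an alpha/beta-hydrolase fold and differ mainly in where they act, ACOT1 in the cytosol, ACOT2 in mitochondria and ACOT4 in peroxisomes. ACOT7, ACOT8, ACOT9, ACOT11 and ACOT13 encode the type II enzymes, which share the unrelated hotdog fold. PR is a nuclear receptor that, once bound by a progestin, binds DNA as a dimer at palindromic hormone response elements, and sites far from a promoter are common.

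In R5020 the cluster stood higher than in EtOH and the other thioesterase genes stood close to their EtOH level. FPKM is a fragment count scaled to transcript length and library size, and so a level per length. The FPKM summed over the 4 clustered genes was 14.5 in EtOH and 36.0 in R5020, 2.48 times as much. Summed over the 5 other genes it was 24.9 in EtOH and 27.6 in R5020, 1.11 times as much. The cluster thereby made up 36.8% of the FPKM summed over the members in EtOH and 56.6% in R5020. Other enzymes with thioesterase activity, listed further below, are not part of these shares. Their summed FPKM was 66.5 in EtOH and 59.3 in R5020. The strongest PR binding site near any member lay inside the cluster, over an annotated start site of ACOT6.

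The sequences below are shown because they lie under PR binding sites next to a member and hold the core ACANNNTGT of the hormone response element. Sites that hold only its arm, AGAACA or the reverse complement TGTTCT, are not printed. They were read from GRCh37, the assembly of hg19, on the + strand, 5′ to 3′. The capitals mark matches to the core ACANNNTGT of the hormone response element, to its arm AGAACA or to the full palindrome GNACANNNTGTNC. The ACOT6 stretch holds the 250 bases before the start site at position 74077649 of chromosome 14, taken from RefSeq and placed on GRCh37 by an exact match.
ACOT6 promoter, chr14:74077399-74077648: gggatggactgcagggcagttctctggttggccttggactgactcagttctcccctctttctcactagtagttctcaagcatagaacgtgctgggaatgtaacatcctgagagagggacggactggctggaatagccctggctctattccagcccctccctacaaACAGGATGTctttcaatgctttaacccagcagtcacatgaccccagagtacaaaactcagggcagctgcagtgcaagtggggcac
ACOT6 intron, chr14:74080313-74080612: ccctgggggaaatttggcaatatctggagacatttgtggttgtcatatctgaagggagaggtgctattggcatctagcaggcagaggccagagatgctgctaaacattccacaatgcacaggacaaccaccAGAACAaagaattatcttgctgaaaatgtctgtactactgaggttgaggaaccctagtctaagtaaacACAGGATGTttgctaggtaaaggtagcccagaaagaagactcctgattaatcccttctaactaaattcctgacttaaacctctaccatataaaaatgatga
GPR153 intron next to ACOT7, chr1:6319650-6319949: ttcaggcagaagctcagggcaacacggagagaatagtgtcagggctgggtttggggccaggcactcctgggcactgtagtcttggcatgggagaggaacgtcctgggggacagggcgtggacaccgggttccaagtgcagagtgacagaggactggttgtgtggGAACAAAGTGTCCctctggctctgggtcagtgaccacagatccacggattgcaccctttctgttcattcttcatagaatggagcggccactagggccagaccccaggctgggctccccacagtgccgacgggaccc
The ACOT6 promoter and the ACOT6 intron carry the same core, ACAGGATGT. The full palindrome was met only in the stretch next to ACOT7, as GAACAAAGTGTCC, among the 11 PR binding sites within 50 kb of a member.

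ACOT6, which lies at the downstream end of the cluster, stood at an FPKM of 0.597 under EtOH and 8.33 under R5020. It was the lowest of the clustered genes in EtOH and stood above ACOT1 in R5020. Its log2 fold change, computed here and throughout as log2((R5020 + 1) / (EtOH + 1)) on the FPKM scale, was 2.55, rank 44 among the 11018 genes retained with an FPKM of 1 or more in at least 1 library. ACOT6 passed this filter only through the R5020 library. The ratio without the added 1 was 13.96. The coverage behind these values was equal to 54.1 reads of 50 nt in EtOH and 759 in R5020. The intervals given with the FPKM were 0.324 to 0.892 in EtOH and 7.90 to 10.2 in R5020 and did not overlap.

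ACOT2, the mitochondrial enzyme for long-chain acyl-CoA, reached a summed FPKM of 4.16 without hormone and 9.82 in R5020 (log2 fold change 1.07, rank 331). Most of it came from the coding transcript NM_006821, at 3.79 (interval 3.25 to 4.34) in EtOH and 8.66 (7.79 to 9.53) in R5020. The non-coding transcript NR_046028, which starts farther upstream, was at 0.369 in EtOH and 1.16 in R5020 (log2 fold change 0.66). Both transcripts were higher in R5020 and the intervals of the libraries did not overlap for either. They end at the same position, and reads over their common sequence cannot be told apart, so the split between them is uncertain.

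ACOT4, the peroxisomal enzyme, stood at 5.60 in EtOH and 11.9 in R5020 (log2 fold change 0.96, rank 402). It was the highest clustered gene in both libraries and its coverage was equal to 891 and 1802 reads. Its FPKM lay above its own interval in each library, 3.38 to 4.50 in EtOH and 7.14 to 8.80 in R5020, and the intervals did not overlap. Such a gap between FPKM and interval was met for 35.4% of all transcripts with an FPKM above 1 in each library.

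ACOT1, the cytosolic enzyme, was at 4.15 in EtOH and 5.96 in R5020. This log2 fold change of 0.44 (rank 1214) was the smallest of the cluster and lay under the 1.5-fold threshold, which is 0.58 on this scale. Its FPKM also lay above its own intervals of 2.45 to 3.50 and 3.55 to 4.74, which did not overlap. ACOT1 and ACOT2 were level in EtOH and apart in R5020.

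**Figure D1:**
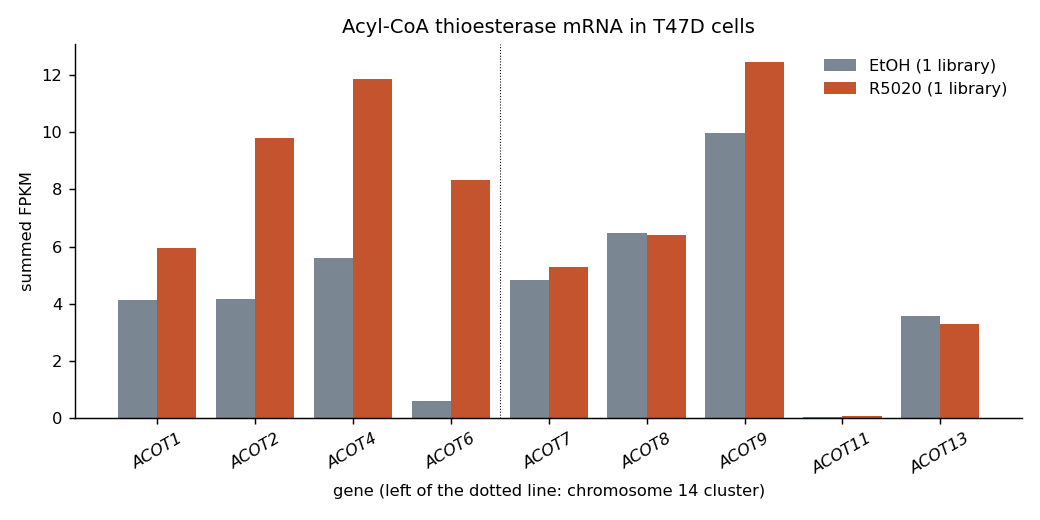
Summed FPKM of each of the 9 thioesterase genes (horizontal axis) in the EtOH library (grey bars) and the R5020 library (orange bars), 1 library each and therefore without error bars. ACOT2, ACOT4 and ACOT6 are higher in R5020, ACOT6 from 0.597 to 8.33, while the genes right of the dotted line change little.

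ACOT1 and ACOT2 are near-identical copies, and the reads that fit several places were discarded by the authors. The ACOT1 and ACOT2 transcripts of GENCODE were identical at 94.0% of 1606 aligned bases. Of all 50-base windows of the ACOT1 transcript 55.5% also lay elsewhere in the genome or its transcripts, and 85.8% did so in the cluster or elsewhere when 2 mismatches were allowed. For ACOT2 (NM_006821) these shares were 54.0% and 79.5%. The levels of ACOT1 and ACOT2 are thus uncertain and may be too low, because reads that fit both were dropped. Their sum, 8.31 in EtOH and 15.8 in R5020, has the same limit. So have the sums and shares of the cluster above and any ordering of ACOT1 and ACOT2 against the other members.

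ACOT4 and ACOT6 could be told from the other copies by their sequence. The share of windows found elsewhere was 1.91% for ACOT4 and 0 of 955 windows for ACOT6, and 3.88% and again 0 with 2 mismatches within the cluster. ACOT4 was identical to ACOT1 at 73.8% of aligned bases and ACOT6 at 61.0%. GENCODE places further genes over them: 63.8% of the ACOT4 windows also belong to transcripts of ENSG00000288797 and 40.0% of the ACOT6 windows to ENSG00000258603. Reads of these overlapping genes and of the members cannot be told apart in the files.

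Among the type II genes ACOT9, a mitochondrial enzyme, was the highest member in both libraries, at 9.97 in EtOH and 12.5 in R5020. Its log2 fold change of 0.30 was the largest of the type II genes and below the threshold. Its transcripts differed. NM_001033583 was at 7.66 in EtOH and 8.50 in R5020 with intervals that overlapped, whereas NM_001037171 was at 2.31 (1.95 to 2.68) and 3.97 (3.49 to 4.46) with intervals that did not. The share of NM_001037171 in the FPKM of the gene was 23.2% in EtOH and 31.8% in R5020, and its log2 fold change of 0.58 fell just short of the threshold. Without the added 1 its ratio was 1.71, above 1.5-fold. Both ACOT9 transcripts have the same ends and are 1700 and 1727 bases long. Reads over their common sequence cannot be told apart, so the split between them is uncertain.

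ACOT7, a cytosolic enzyme best known from brain, was at 4.85 in EtOH and 5.29 in R5020 (log2 fold change 0.11). The transcripts behind this near-level sum differed in direction. NM_007274, which begins at the outermost start of the gene, was at 4.39 in EtOH and 3.79 in R5020 (log2 fold change -0.17, intervals overlapping). NM_181864, which begins at a start farther inside the gene, was at 0.456 (0.230 to 0.690) in EtOH and 1.51 (1.11 to 1.92) in R5020 (log2 fold change 0.78). NM_181864 thus made up 9.40% of ACOT7 FPKM in EtOH and 28.5% in R5020. NM_181864 and NM_007274 end at the same position, and reads over their common sequence cannot be told apart. The split between them is therefore uncertain, and the coverage of NM_181864 in EtOH was equal to 67.2 reads. The other 2 transcripts of ACOT7, NM_181865 and NM_181866, were listed at 0 in both libraries.

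ACOT8, a peroxisomal enzyme of broad specificity, was at 6.46 in EtOH and 6.41 in R5020 (log2 fold change -0.01), and its intervals overlapped almost fully, 5.50 to 7.44 and 5.38 to 7.45. ACOT13, a small enzyme found at mitochondria, was at 3.56 in EtOH and 3.31 in R5020 (log2 fold change -0.08), under its own intervals of 5.45 to 6.28 and 4.81 to 5.71. ACOT11, a thioesterase that also carries a lipid-binding START domain, was at 0.0357 in EtOH and 0.0856 in R5020, a coverage equal to 6.01 and 15.5 reads. Neither value reached an FPKM of 1, so ACOT11 did not pass the filter and a difference was not detectable at this depth.

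**Figure D2:**
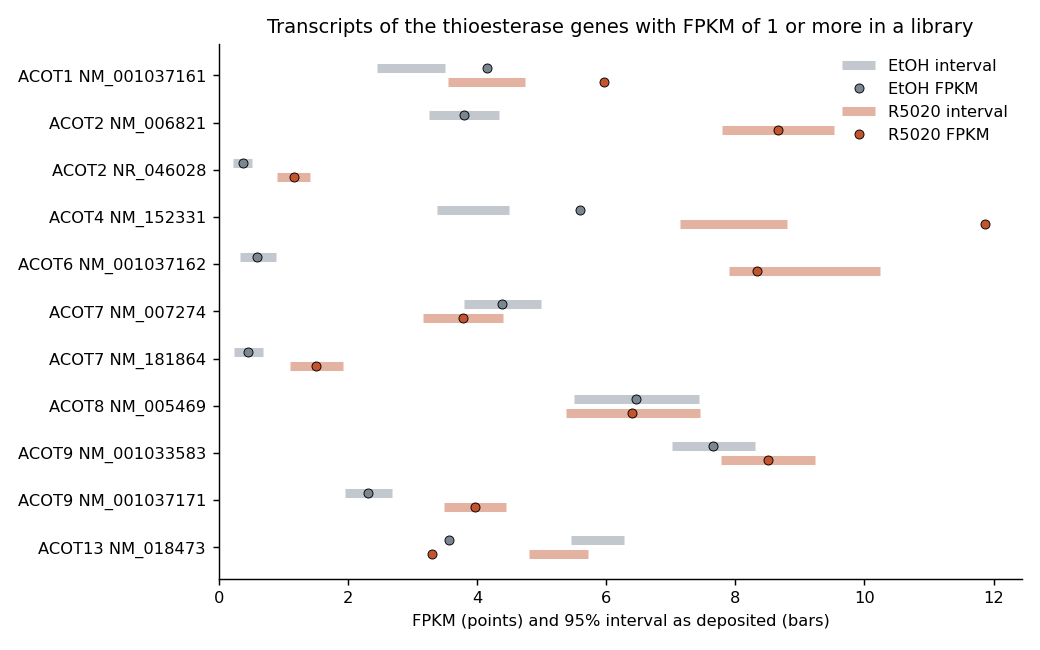
FPKM (points) and the interval given with it by the authors (bars) for the 11 transcripts of the thioesterase genes with an FPKM of 1 or more in a library, in EtOH (grey) and R5020 (orange). The intervals of 7 transcripts lie wholly higher in R5020 and 4 overlap, and the points of ACOT1, ACOT4 and ACOT13 lie outside their own bars.

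Of the 16 member transcripts 11 were retained. At the 1.5-fold threshold 5 of them were higher in R5020 (both of ACOT2, and those of ACOT4, ACOT6 and ACOT7 named above) and 0 were lower, while 11.3% of all 13625 retained transcripts were higher and 8.34% lower. The interval was wholly higher in R5020 for 7 of the 11, against 26.8% of all retained transcripts, and wholly lower for 0, against 21.4%. The ACOT6 transcript, NR_046028 of ACOT2 and NM_181864 of ACOT7 were below 1 in EtOH and were retained only through R5020. They are in both counts and could not have been counted as lower, so these counts follow in part from the filter. These intervals are meant for the error of the estimate within a library and do not cover the spread between cultures. With 35.4% of transcripts above an FPKM of 1 outside their own interval in each library, they are a loose guide even to that error.

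By gene, 8 of the 9 members were retained, 3 were at least 1.5-fold higher (ACOT2, ACOT4 and ACOT6) and 0 were lower. ACOT6 was below 1 in EtOH and was retained only through R5020, so it could not have been counted as lower. Over all 11018 retained genes 845 were higher, 7.67%, and 456 were lower, 4.14%. The median log2 fold change was 1.02 over the 4 clustered genes, 0.05 over the 4 retained type II genes and 0.01 over all retained genes. The member just inside the threshold was ACOT4 at 0.96 and the member just outside it was ACOT1 at 0.44.

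**Figure D3:**
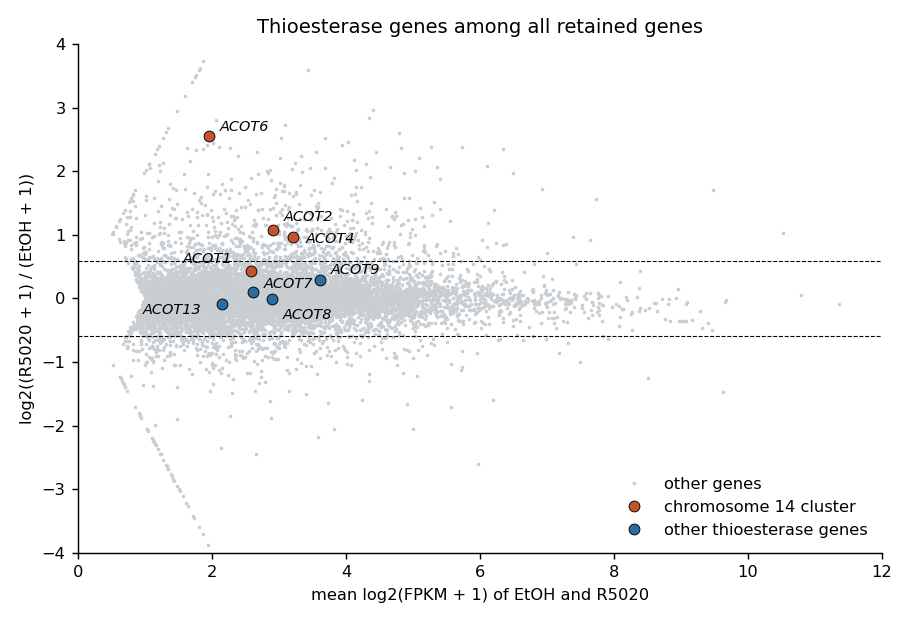
Log2 fold change (vertical axis) against mean log2(FPKM + 1) (horizontal axis) for the 11018 retained genes in grey, the chromosome 14 cluster in orange and the other thioesterase genes in blue, with dashed lines at 1.5-fold. ACOT6 stands at 2.55 and ACOT2 and ACOT4 stand above the upper line, with the type II genes between the lines. Not shown are 50 genes with a log2 fold change above 4 in size and 2 genes beyond the expression axis.

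The order of the members changed between the libraries. From highest to lowest it was ACOT9, ACOT8, ACOT4, ACOT7, ACOT2, ACOT1, ACOT13, ACOT6 and ACOT11 in EtOH. In R5020 it was ACOT9, ACOT4, ACOT2, ACOT6, ACOT8, ACOT1, ACOT7, ACOT13 and ACOT11. ACOT6 moved from the eighth place to the fourth. With 1 library each, neighbours such as ACOT1 and ACOT2 in EtOH, at 4.15 and 4.16, cannot be ordered. The places of ACOT1 and ACOT2 also depend on the reads that were dropped because they fit both.

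The PR ChIP-seq list held 11181 binding sites, each with a score that rises with the negative log10 of its MACS p-value, with a median of 74.5. Of the 9 members 8 had a site in the gene or within 50 kb of it. Among the retained members 7 of 8 did, against 53.6% of all retained genes, and at least 4 sites were found for ACOT2, ACOT4 and ACOT8, against 13.2% of retained genes. In all 11 sites were concerned, and 4 of them lay near the cluster and were counted for several of its genes.

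The strongest of these, chr14:74077279-74077907, had a score of 508 and was rank 52 of all 11181 sites. It holds the RefSeq and GENCODE start site of ACOT6 at position 74077649, which lay 56 bases from its midpoint. The ACOT6 transcript in the FPKM lists starts 5.64 kb farther downstream of the site, at position 74083548, so the upstream exon is not part of the transcript whose FPKM is given. The core ACAGGATGT printed above lies at 74077564-74077572 inside this site. The site was 14.8 kb from ACOT4 and 34.9 kb from ACOT2, and at 66.8 kb from ACOT1 it lay outside the 50 kb limit for that gene. A site at least as strong was found within 50 kb of 169 retained genes, 1.53%. The share was 3.20% of the genes at least 1.5-fold higher, 1.54% of those lower and 1.39% of those that changed less. ACOT2, ACOT4 and ACOT6 are themselves among these higher genes, counted through this site.

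The other 3 sites of the cluster were weaker. The site chr14:74080265-74080660 (score 86.3, rank 3061) lies in an intron of ACOT6, 2.89 kb before the transcript in the FPKM lists, and holds 2 cores and 1 arm. The site chr14:74034256-74035122 (score 72.6, rank 6063) covers the start of the ACOT2 transcript NR_046028 at 74034324 and holds 2 arms. The site chr14:74028323-74028559 (score 91.8, rank 2250) lies between ACOT1 and ACOT2, 17.8 kb from ACOT1 and 5.77 kb from ACOT2, and holds no match to the letters searched. The start site nearest to its midpoint is that of another gene, HEATR4, at 2.79 kb. ACOT1 thus had 2 sites within 50 kb, at 17.8 and 23.8 kb. For ACOT6 the site just inside the limit was at 48.4 kb and the site just outside at 55.0 kb. These distances run to the ACOT6 transcript in the FPKM lists. Measured from the upstream ACOT6 start inside the strongest site, the site at 55.0 kb would fall within 50 kb. Every site of the cluster would then count for ACOT6.

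**Figure D4:**
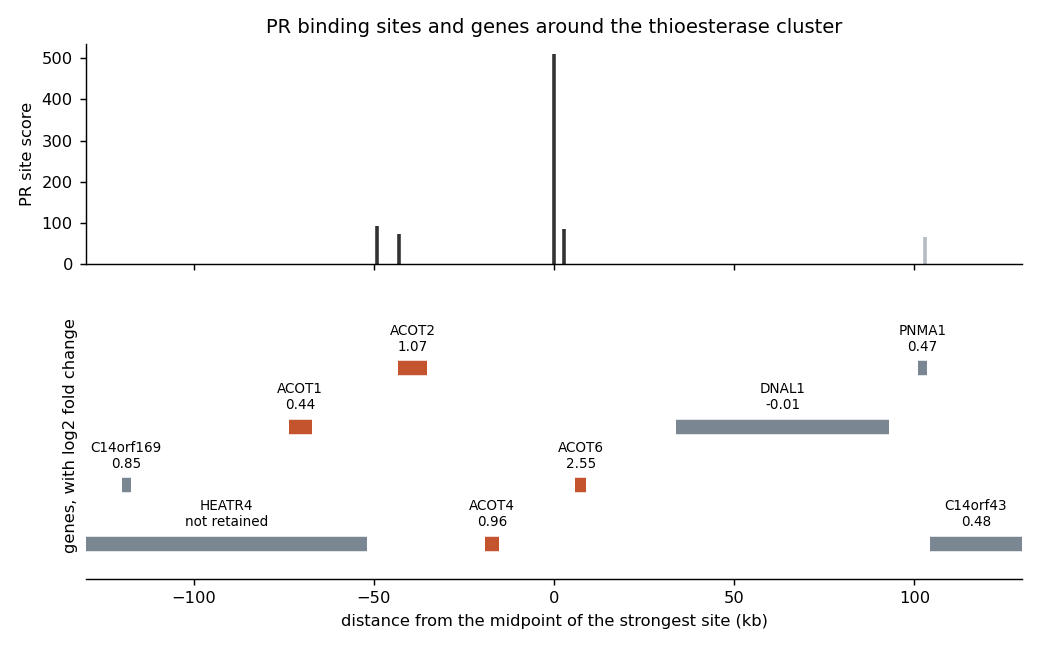
PR binding sites (upper panel, height is the score) and genes (lower panel, with the log2 fold change under each name) by distance in kb from the midpoint of the strongest site, thioesterase genes in orange, other genes in grey and the sites within 50 kb of a member in black. The site with a score of 508 lies just left of the ACOT6 transcript, the other sites shown reach at most 91.8, and DNAL1 on the far side of the site has a log2 fold change of -0.01.

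Around the type II genes the sites lay mostly in or next to other genes. ACOT8 had 4 sites, as many as ACOT2 and ACOT4, with a log2 fold change of -0.01. The strongest, chr20:44462323-44462921 (score 149, rank 457), covers start sites of SNX21 and TNNC2 and lay 7.44 kb from ACOT8. Another site (score 82.4) covers start sites of CTSA and NEURL2, and those left had scores of 64.0 and 68.3. SNX21 also overlaps ACOT8 itself, and 17.0% of the 50-base windows of ACOT8 belong to SNX21 transcripts too. The site next to ACOT7, chr1:6319637-6319961 (score 90.5), lies in an intron of GPR153 at 4.37 kb from ACOT7 and is the printed stretch with the full palindrome. ACOT9 had a site of score 85.3 in an exon of PRDX4 at 35.8 kb, and ACOT11 had a site of score 62.6 inside the gene. ACOT13 had none, the nearest being 1678 kb away. For ACOT8 the site just inside the limit was at 47.2 kb and the one just outside at 50.4 kb.

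A site near a gene was common whatever the gene did. At least 1 site within 50 kb was found for 61.5% of the genes 1.5-fold higher, 62.3% of those lower and 52.5% of those that changed less. For the letters, the full palindrome was present in 2.40% of the 11178 sites on the assembled chromosomes, the core in 11.6% and the arm on either strand (AGAACA or TGTTCT) in 25.2%. In 300-base windows at site midpoints these shares were 1.88%, 8.20% and 17.7%, and in windows 5 kb away 0.492%, 7.67% and 19.2%. A full palindrome always contains the core, both motifs are their own reverse complement, and 0.390%, 5.37% and 14.8% of 35116 RefSeq promoters of 300 bases held the full palindrome, the core and the arm.

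Promoters of 8 members were present in the RefSeq table, ACOT1 being the exception, and all 12 of their promoter sequences were matched to GRCh37. A PR binding site lay over 1 of them, that of ACOT6. Besides this promoter, only that of the inner ACOT7 start at 6445828 held the core.

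The genes around the cluster were taken by position, all those within 500 kb of its 82.7 kb. Of 18 such genes 15 were retained, 1 was at least 1.5-fold higher, 0 were lower and the median log2 fold change was 0.06. The gene that was higher, C14orf169, was at 7.43 in EtOH and 14.2 in R5020 (log2 fold change 0.85) and lay 117 kb from the strongest site. PNMA1 (0.47) and C14orf43 (0.48), 101 and 104 kb away on the other side, stayed below the threshold with FPKM of 17.2 and 24.2 and of 4.48 and 6.62. DNAL1, the nearest retained neighbour at 33.7 kb from the strongest site and with 4 sites within 50 kb, was at 3.93 and 3.88. Farther out, in order along the chromosome, RBM25, NUMB, PTGR2, ZNF410, FAM161B, COQ6, ENTPD5, C14orf45, ALDH6A1 and LIN52, had log2 fold changes from -0.31 (COQ6) to 0.13 (ALDH6A1). HEATR4, whose extent covers ACOT1, was listed at 0 in both libraries, and whether reads were counted by strand is not given in the sources used here.

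The genes that act beside the thioesterases were described as lists. The 8 other enzymes with thioesterase activity on acyl-CoA or fatty acyl chains had 4 retained genes, 0 higher and 0 lower at 1.5-fold, and a median log2 fold change of -0.19. PPT1, a lysosomal palmitoyl-protein thioesterase, was at 54.8 in EtOH and 48.1 in R5020, and its relative PPT2 at 2.69 and 2.17. THEM4 was at 2.19 and 1.78, and HIBCH, which cuts a valine-derived acyl-CoA, at 6.55 and 6.64. ACOT12, BAAT, THEM5 and OLAH stayed below an FPKM of 1, at 0 and 0, 0.0104 and 0.0602, 0.134 and 0.104, and 0.210 and 0.384.

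Acyl-CoA synthetases, which make the substrate of the thioesterases, had the most genes past the threshold of these lists. Of 24 found (ACSM6 was not analysed here) 10 were retained, 4 were higher, 0 were lower and the median was 0.18. Over all retained genes 7.67% were higher and 4.14% lower, and the lists differ in size. ACSL1, a long-chain synthetase, was at 18.2 in EtOH and 42.3 in R5020 (log2 fold change 1.17) and ACSL3, found at lipid droplets, at 17.6 and 27.7 (0.63). ACSS1, the mitochondrial acetyl-CoA synthetase, was at 7.10 and 16.4 (1.10) and ACSF2 at 2.86 and 6.21 (0.90).

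The oxidation pathways had medians near 0. Of 20 mitochondrial beta-oxidation genes 17 were retained and 1 was higher, ECI2, an enoyl-CoA isomerase, at 21.8 and 34.3 (0.63), with a median of -0.05. Of 16 peroxisomal genes 13 were retained, with a median of 0.04. None of either list was lower.

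Of the 17 PPAR factors and usual PPAR target genes 9 were retained, 2 were higher, 1 was lower and the median was -0.01. PDK4, a kinase that restrains pyruvate oxidation, was at 0.147 in EtOH and 4.03 in R5020 (2.13) and PLIN2, a lipid droplet coat protein, at 2.69 and 6.63 (1.05). ANGPTL4, an inhibitor of lipoprotein lipase, was lower, at 1.85 and 0.508 (-0.92). Of the 7 acyl-CoA binding and transfer proteins all were retained, 0 were higher, 1 was lower, ACBD4 at 4.23 and 2.09 (-0.76), and the median was 0.07.

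**Figure D5:**
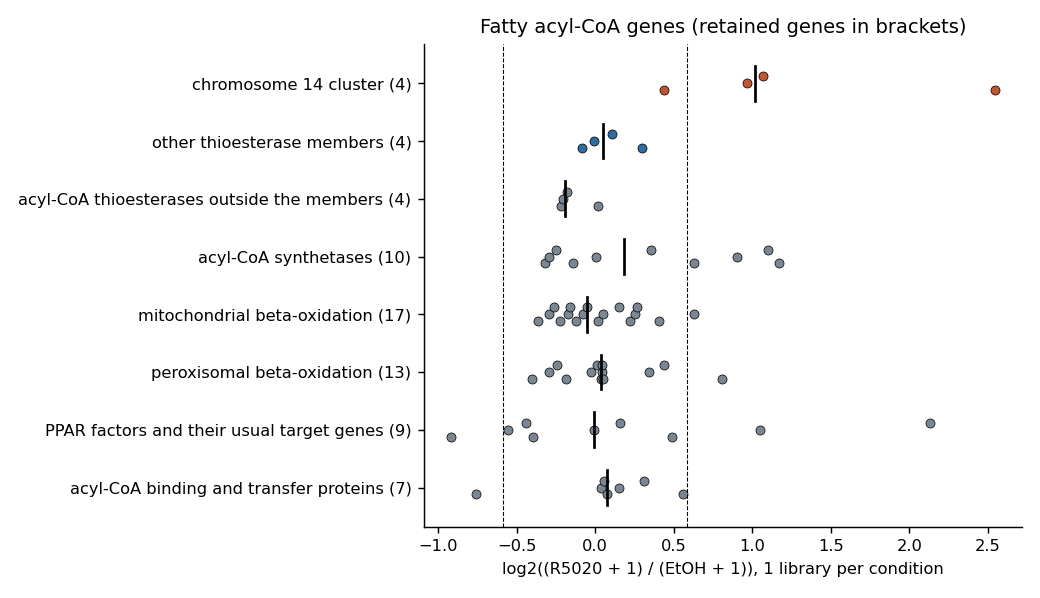
Log2 fold change (horizontal axis) of every retained gene in the chromosome 14 cluster (orange), the other thioesterase members (blue) and 6 lists around them (grey), with the median of each as a vertical bar and dashed lines at 1.5-fold. The median of the cluster is 1.02, and those of the other rows lie between -0.19 (thioesterases outside the members) and 0.18 (acyl-CoA synthetases).

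Genes near to the cluster in level were found by the distance between log2(FPKM + 1) values of its sum and of 11010 other retained genes over the EtOH and R5020 libraries. Among the nearest were RAB4A, a small GTPase of endosomes, at 15.7 and 35.5 (distance 0.106) and LRIG1 at 13.8 and 38.4 (0.112). With 2 libraries this likeness says no more than that both levels are close.

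The libraries held coverage equal to 35151493 reads in EtOH and 36203604 in R5020 over 41138 transcripts, and the median log2 ratio over genes at 1 or more in both was 0.01. The paper reports more unique paired-end reads than this for each library, and more for EtOH than for R5020. The coverage is thus not a count of the aligned reads. The luminal markers KRT19, EPCAM, ESR1, PGR, GATA3 and FOXA1 were present in both libraries, from 17.2 (ESR1) to 608 (KRT19) in EtOH and from 10.9 (ESR1) to 477 (KRT19) in R5020. All 6 had a lower FPKM in R5020, 4 of them past 1.5-fold. FOXA1 was at 64.3 and 14.7 (log2 fold change -2.05) and GATA3 at 253 and 126, and ESR1 and PGR had log2 fold changes of -0.61 and -0.60, KRT19 of -0.35 and EPCAM of -0.16. KRT8 and KRT18 were listed at 0 in EtOH with a failed estimate and at 285 and 174 in R5020, and estimates failed for 9 transcripts in EtOH and 13 in R5020, none of them of a thioesterase gene. Of the markers of other cell types COL1A1 was at 5.12 and 3.31, while PTPRC, COL3A1, PECAM1, VIM, CDH2, HBB and ALB were below 1. Summed, those 8 markers were at 5.75 and 4.18. The part of either set of markers in the differences above was not tested. In such bulk libraries fewer cells with an mRNA and less of it per cell cannot be told apart.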

How the data were processed

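The RNA-seq libraries (EtOH and R5020) and the PR ChIP-seq library of T47D cells were analysed. No file of the input DNA was used here. Per the methods, the authors aligned 50-nt paired reads with TopHat (hg19), dropped those that fit several places and ran Cufflinks. Bowtie 1.1.2 is named in the submitters' processing notes. The authors deposited FPKM with its interval, and a coverage that served only to express depth as coverage times length over 50 nt. They deposited PR binding sites with a score from MACS, called against input.

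FPKM was summed by gene symbol over 41138 transcripts and compared as log2((R5020 + 1) / (EtOH + 1)). Genes with FPKM of 1 or more in a library were retained and 1.5-fold set the limit. Both values are those of the study, but its p-value was not used and the added 1 makes the limit stricter than a plain ratio for low genes. Distances ran from the nearest edge of a site to the extent of a gene. Sequence and annotation were GRCh37 with GENCODE 44, and RefSeq promoters. Transcripts were matched to GENCODE by their ends and length. The dose and times are those of the methods.

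The members and lists were chosen with earlier results of these data known. Named were all members and their transcripts, all other thioesterases, list genes past 1.5-fold, retained genes within 500 kb, sites within 50 kb, the 3 genes nearest to the cluster in level and the markers. A few genes that this rule names are not reported here. With 1 library per condition no p-value was computed. Alternatives concerned the pseudocount, filter, threshold, scaling, choice of transcript and distance. The scripts were tested on simulated data. Python 3.11.15, pandas 2.3.3, numpy 2.4.6, pysam 0.24.0, Biopython 1.88 and matplotlib 3.10.9 were used.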

Additional observations from a re-analysis of the deposited data

How the results depend on the processing

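Under each other pseudocount, scaling, choice of transcript and interval midpoint tried, ACOT2, ACOT4 and ACOT6 were the 3 members at least 1.5-fold higher (at 2-fold ACOT4, at 0.96, falls short), and the median of the cluster minus that of the 5 other members stayed between 0.90 and 1.03 on the log2 scale. ACOT6 went from a log2 fold change of 2.55 to 3.60 with a pseudocount of 0.1 and to 3.80 without one, and ACOT11, below the filter, came to 1.26 without one. The ratio without a pseudocount and the midpoint of the FPKM interval were chosen after seeing the data. Of all retained genes, 787 were lower with a pseudocount of 0.1, 299 were lower with FPKM of 1 or more in both libraries, and 378 were higher and 144 lower at 2-fold. The filter on both libraries was applied to all genes and not to the count of members. ACOT6, at 0.597 in EtOH, would not pass it. The 11 PR binding sites near members were 7 within 10 kb, 18 within 100 kb and 7 when only the higher-scoring sites, from the median score up, were kept. No paired analysis was possible because each condition is 1 library, and for the same reason no replicate could be left out. The depth limits ACOT11 above all, with coverage equal to 6.01 and 15.5 reads. The levels of ACOT1 and ACOT2 rest on the windows in which they differ.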
